A study of Rattus norvegicus with 2 samples.

Results

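The genes described here are the Fox, Sox, Gata, T-box and Hand transcription factors of the rat insertion table, 65 of 18156 listed genes. They were taken by symbol alone, and without Sox2 and Tbx3 are 32 Fox, 14 Sox, 5 Gata, 12 T-box and 2 Hand genes. Sox2 and Tbx3 were left out as factors of naive pluripotency, and the other members were not sorted by such a role. Each was followed in a piggyBac insertion library taken after screening and another taken before screening. Both libraries came from RAH-1GFP cells, made from the single rat haploid embryonic stem cell (haESC) line RAH-1 by adding a green fluorescent protein reporter at Rex1, a gene of naive pluripotency, and then mutated with PB-SA-RFP, a transposon that carries a splice acceptor and traps genes. For the library after screening, the mutant cells were differentiated at random through embryoid bodies, and cells that still fluoresced were sorted and returned to feeder cells in 2i/LIF medium, whereas the mutant pool before screening had not been differentiated. Insertions were read by splinkerette PCR, which amplifies the DNA beside a transposon end. Each group had 1 library, so no difference has a replicate check and no p-value is given.

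Transcription factors of these families bind DNA through a forkhead, HMG box, zinc finger, T-box or basic helix-loop-helix domain, and they direct cells out of pluripotency into the germ layers and their derivatives. Foxa, Gata and Sox17 factors act in endoderm, T-box and Hand factors in mesoderm and heart, and many Sox factors in neural tissue and neural crest. A haploid cell has no second copy to cover a trapped gene, and the screen asked which insertions accompany a retained Rex1 signal after differentiation. The table counts insertions in DNA and says nothing of whether these genes were transcribed.

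The library after screening held 1287231 insertions in genes from 2351082 reads, and the library before screening held 1528935 from 2824155 reads. A gene's level is its share of these insertions, and its fold is the ratio of shares, after over before screening, with a 95% exact Clopper-Pearson interval. These intervals, and the floors below, account for counting error alone: the PCR carried no molecular identifiers, so its products do not stand for separate molecules. Where a library held no insertion, the fold was taken against a floor of 3 insertions in that library and is given as "at least". The floor is a share of 0.000233% after and 0.000196% before screening. Such a fold leaves out the counting error of the other library, so the exact interval can start lower. A gene with at least 10 insertions over both libraries was measured, and the calls "higher" and "lower" after screening needed a difference in share of 4-fold or more with an interval that left out 1. These calls rank size and test nothing.

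As a group the lineage factors held the same share of insertions in both libraries within counting error. They held 6152 insertions after and 7343 before screening, which is 0.478% and 0.480% of the library, a ratio of 0.995 (0.962 to 1.03). Of the 65 genes, 55 had an insertion after and 55 before screening, and 54 were measured. Among these, 14 were called higher after screening (25.9%, against 19.5% of all measured genes) and 8 were called lower (14.8%, against 21.7% of all measured genes), while 32 were not called. Called in either direction were 40.7% of the measured lineage factors and 41.2% of all measured genes, so the overall share lay near the background. The median log2 ratio was 0.04 over the lineage factors (quartiles -0.80 and 1.999) and -0.01 over all genes (quartiles -1.60 and 1.45). By a fold of 2 without an interval, 19 lineage factors were higher (31.5% of all genes were) and 11 were lower (32.4% of all genes were).

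**Figure D1:**
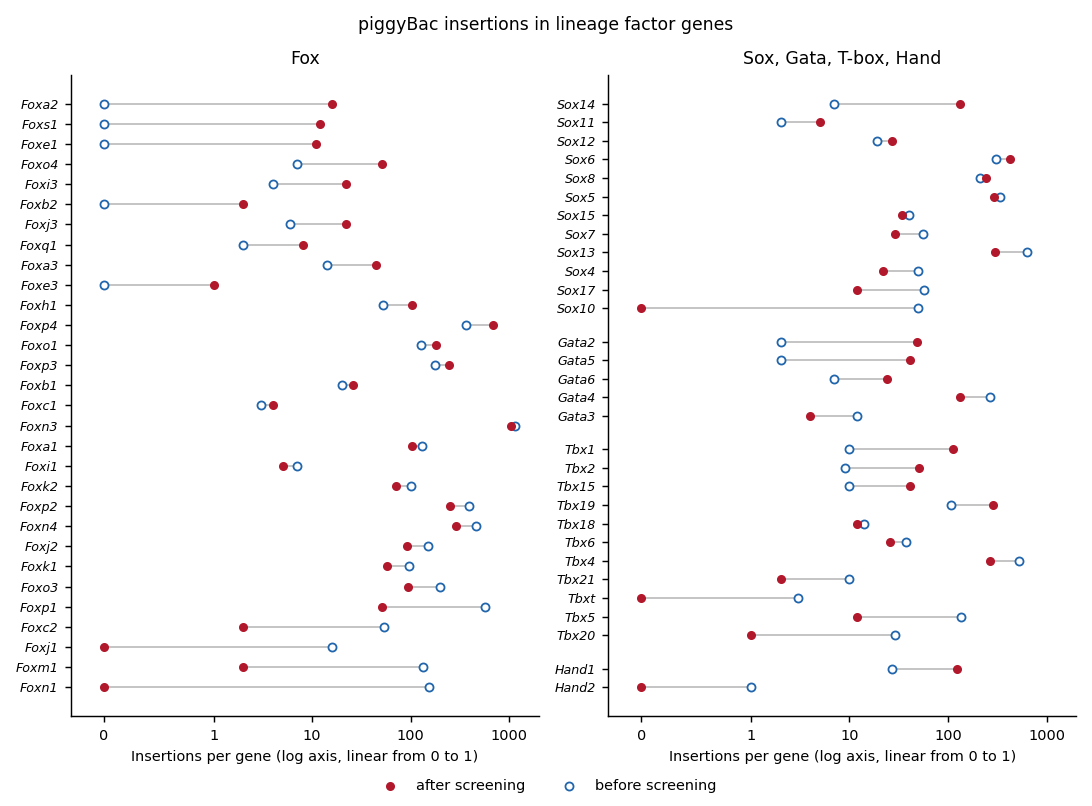
Insertions per gene in the library after screening (filled red) and before screening (open blue) for the 60 lineage factors with an insertion in either library, grouped by family and ordered by ratio, on a log axis that is linear between 0 and 1. Foxn3, with 1029 insertions after and 1146 before screening, had nearly equal counts, whereas Foxn1 had 0 after and 153 before screening.

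Calls were most frequent among genes with few insertions. Of the 17 lineage factors with 10 to under 50 insertions, 10 were called (7 higher and 3 lower), where 60.8% of all genes in this range were called. In the range of 50 to under 200 insertions 11 of 20 were called (7 higher and 4 lower), against 44.8% of all genes. Of the 17 with 200 or more insertions only Foxp1 was called, against 19.2% of all genes. The 5 largest members of the group held 44.2% of its insertions after and 45.3% before screening.

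**Figure D2:**
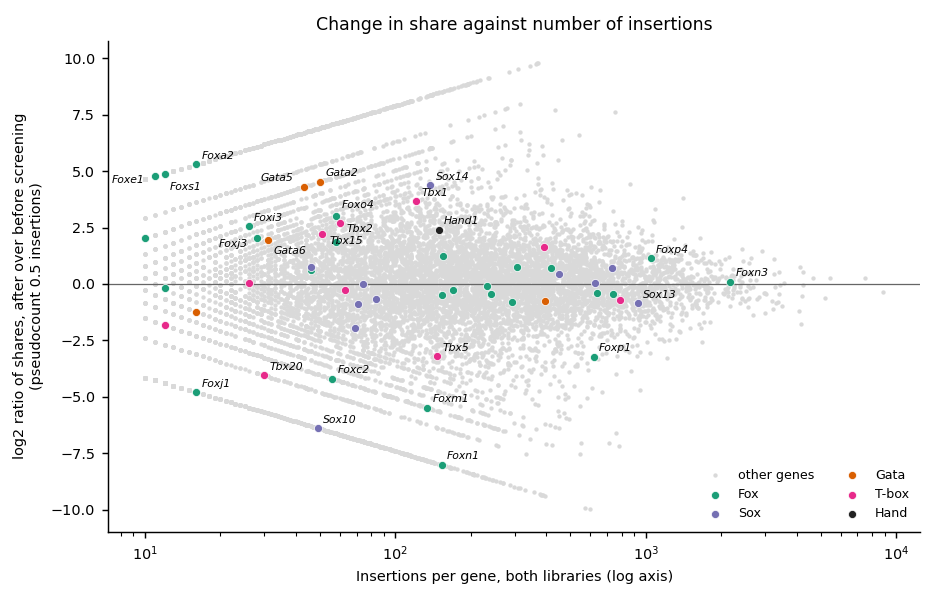
Log2 ratio of shares, after over before screening, with a pseudocount of 0.5 insertions, against the insertions of each measured gene over both libraries on a log axis; colours mark the 5 families, grey points the other measured genes, and names the called members and the largest ones. The called members lie mostly under 200 insertions, and Foxp1 is the called member with more.

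Of 27 measured Fox genes, 6 were called higher (22.2%) and 5 lower (18.5%) after screening, near the 19.5% and 21.7% of all measured genes. Their median log2 ratio was 0.09. Foxp1, a repressor of the Foxp subfamily needed in heart and B cells, held 51 insertions after and 569 before screening, a 9.39-fold lower share (7.05 to 12.8). The gene overlaps Eif4e3 and predicted loci in RefSeq, to which part of its insertions can belong. Foxn1, the thymic epithelial factor lost in nude mice, held 0 insertions after and 153 before screening, at least 42.9-fold lower (interval from 34.5). Foxm1, a driver of mitotic genes, held 2 insertions after and 132 before screening, 55.6-fold lower (15.1 to 464), and it overlaps Tex52. Both genes were thus almost empty after screening although they were well hit before it. Foxc2, a factor of mesenchyme and lymphatic vessels, held 2 insertions after and 54 before screening, 22.7-fold lower (5.996 to 192). Foxj1, the master factor of motile cilia, held 0 after and 16 before screening, at least 4.49-fold lower, with an interval from 3.25.

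Among the Fox genes called higher, the largest in number was Foxo4, an effector of insulin signalling, with 51 insertions after and 7 before screening, 8.65-fold higher (3.91 to 22.6). Foxi3, a factor of ectodermal placodes, held 22 insertions after and 4 before screening, 6.53-fold higher (2.22 to 26.1). Foxj3 held 22 after and 6 before screening, 4.36-fold higher (1.71 to 13.1), and overlaps 2 pseudogenes. For the other 3 no insertion was found before screening. Foxa2, the pioneer factor of endoderm and node, held 16 after and 0 before screening, at least 6.33-fold higher, with an interval from 4.58, and it overlaps a predicted non-coding RNA. Foxs1 held 12 after and 0 before screening, at least 4.75-fold higher, and Foxe1, a thyroid factor, held 11 after and 0 before screening, at least 4.36-fold higher. The intervals of Foxs1 and Foxe1 reached down to 3.30-fold and 2.98-fold.

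The 2 Fox genes with most insertions, Foxn3 and Foxp4, were not called. Foxn3, a transcriptional repressor, held 1029 insertions after and 1146 before screening (ratio 1.07, 0.979 to 1.16), and it overlaps predicted loci. Foxp4, a factor of lung and gut epithelium, held 678 after and 367 before screening (ratio 2.19, 1.93 to 2.50). Foxo1, an insulin effector related to Foxo4, was not called either, with 180 after and 127 before screening (ratio 1.68, 1.33 to 2.13). Foxo3, of the same subfamily, held 94 after and 197 before screening (ratio 0.567, 0.438 to 0.728). Differences among the Foxo genes were not tested.

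PiggyBac integrates at the bases TTAA, and the 250 bases before the start of 4 called genes are shown because the letters a transposon can enter are visible in them. They come from RefSeq with assembly GRCr8, 5′ to 3′ on the gene's strand, with TTAA in capitals, and the counts used here do not give the position of any insertion. Foxn1 (chr10:63771772-63772021, minus strand) and Foxp1 (chr4:133353281-133353530, minus strand) had lower shares after screening, and Tbx1 (chr11:95913360-95913609, plus strand) and Foxa2 (chr3:155927509-155927758, minus strand) higher ones.
Foxn1: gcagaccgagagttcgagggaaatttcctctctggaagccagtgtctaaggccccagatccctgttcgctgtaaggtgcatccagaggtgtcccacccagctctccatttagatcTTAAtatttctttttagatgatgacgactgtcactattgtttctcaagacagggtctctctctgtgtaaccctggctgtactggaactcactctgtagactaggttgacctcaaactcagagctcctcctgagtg
Foxp1: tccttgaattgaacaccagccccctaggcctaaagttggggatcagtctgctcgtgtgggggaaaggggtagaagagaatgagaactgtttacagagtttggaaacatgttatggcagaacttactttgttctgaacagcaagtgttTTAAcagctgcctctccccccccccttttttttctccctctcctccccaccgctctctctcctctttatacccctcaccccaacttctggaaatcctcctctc
Tbx1: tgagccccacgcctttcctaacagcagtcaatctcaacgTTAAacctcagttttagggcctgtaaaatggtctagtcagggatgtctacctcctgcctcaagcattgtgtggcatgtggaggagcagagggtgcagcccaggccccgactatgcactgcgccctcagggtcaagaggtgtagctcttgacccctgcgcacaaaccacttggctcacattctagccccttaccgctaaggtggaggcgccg
Foxa2: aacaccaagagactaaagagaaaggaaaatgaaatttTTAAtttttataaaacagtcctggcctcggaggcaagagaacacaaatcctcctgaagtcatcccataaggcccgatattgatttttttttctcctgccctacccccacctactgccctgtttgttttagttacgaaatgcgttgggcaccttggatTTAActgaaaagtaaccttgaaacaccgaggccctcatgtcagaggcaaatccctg
The window of Foxa2 holds 2 TTAA and the other 3 hold 1 each. Windows of Foxi3, Foxj3, Foxo4, Gata2, Gata6 and Sox14, all called higher, hold no TTAA and are not shown. Those of Hand1 and Tbx15, called higher, and of Tbx5 and Tbx20, called lower, hold 1 each and are not shown either. The remaining called members had no promoter in the RefSeq set. TTAA reads the same on both strands. Of the 65 lineage factors 42 had a promoter in the RefSeq set, and 19 of these (45.2%) hold TTAA in this window, against 16780 of 33469 promoters (50.1%).

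Of 5 measured Gata genes 3 were called higher and 0 lower after screening, where 19.5% of all measured genes were called higher and 21.7% lower. Their median log2 ratio was 1.96. With at most 50 insertions each, the 3 called lie where calls were frequent among all genes. Gata2, required for blood stem cells, held 48 insertions after and 2 before screening, 28.5-fold higher (7.47 to 242), and it overlaps a predicted non-coding RNA. Gata5, a factor of endoderm and heart, held 41 after and 2 before screening, 24.3-fold higher (6.32 to 208). Gata6, which specifies primitive endoderm, held 24 after and 7 before screening, 4.07-fold higher (1.70 to 11.2), just past the fold of 4. Gata4, another endoderm and heart factor, held more insertions than the rest of its family and was not called, with 131 after and 264 before screening (ratio 0.589, 0.474 to 0.729). It too overlaps a predicted non-coding RNA. Summed over the family the insertions were 248 after and 287 before screening, a ratio of 1.03 (0.862 to 1.22).

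Of 10 measured T-box genes, 3 were called higher and 2 lower after screening, against 19.5% and 21.7% of all measured genes, with a median log2 ratio of -0.11. Tbx1, a factor of the pharyngeal arches, held 111 insertions after and 10 before screening, 13.2-fold higher (6.91 to 28.3). Tbx2, a repressor that shapes the atrioventricular canal, held 51 after and 9 before screening, 6.73-fold higher (3.28 to 15.6). Tbx15, a skeletal and skin factor, held 41 after and 10 before screening, 4.87-fold higher (2.40 to 10.9), and overlaps a predicted non-coding RNA. In the other direction, Tbx5, needed for forelimb and heart, held 12 after and 135 before screening, 9.47-fold lower (5.25 to 18.8). Tbx20, a cardiac factor, held 1 after and 29 before screening, 24.4-fold lower (4.05 to 997).

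The T-box genes with most insertions were not called. Tbx4, the hindlimb factor, held 269 insertions after and 523 before screening (ratio 0.611, 0.525 to 0.709), and Tbx19, a factor of pituitary corticotrophs, held 283 after and 108 before screening (ratio 3.11, 2.49 to 3.92). Tbx2 and Tbx4 are neighbours on the chromosome and both overlap the predicted locus LOC134480843, so their assignment is uncertain. Tbxt, the Brachyury factor of early mesoderm, was hardly hit, with 0 insertions after and 3 before screening. Of the Hand genes, Hand1, a factor of trophoblast, extraembryonic mesoderm and heart, held 122 insertions after and 27 before screening, 5.37-fold higher (3.51 to 8.47). Hand2, its heart and limb relative, held 0 after and 1 before screening and was not measured.

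Of 11 measured Sox genes, 1 was called higher and 1 lower after screening, against 19.5% and 21.7% of all measured genes, with a median log2 ratio of 0.02. Sox14, a factor of spinal and midbrain interneurons, held 131 insertions after and 7 before screening, 22.2-fold higher (10.5 to 56.4). Sox10, the neural crest and glial factor, held 0 after and 49 before screening, at least 13.8-fold lower, with an interval from 10.8. Sox13 and Sox6, group D factors with roles in cartilage and lymphoid or erythroid cells, held the most. Sox13 had 296 insertions after and 632 before screening (ratio 0.556, 0.483 to 0.640), and Sox6 had 424 after and 307 before screening (ratio 1.64, 1.41 to 1.91). Sox17, a determinant of definitive endoderm, held 12 after and 57 before screening (ratio 0.250, 0.122 to 0.471) and stood just short of the 4-fold rule. No insertion was found in either library in Foxd1, Sox9, Sox18 and Tbx22, which allows each of them the shares given above for the floor. Another 6 had insertions but fewer than 10, with 0 to 5 after and 0 to 3 before screening.

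Grouped by role, the endoderm factors had 3 of 9 measured genes called higher (Foxa2, Gata5 and Gata6) and 0 lower after screening, with a median log2 ratio of 1.23. Other settings changed these counts. With at least 50 insertions required, Foxa2, Gata5 and Gata6 all dropped out, which left no endoderm factor called higher. Gata6 also lost its call by reads, with halved counts and with scaling by the median ratio. Sox17 was called lower in those settings, by disrupting insertions and with totals that include unassigned insertions. Foxa3 was called higher by reads and by disrupting insertions. The list's summed insertions were 503 after and 580 before screening, a ratio of 1.03 (0.912 to 1.16). Of 11 measured mesoderm and heart factors, a list that also holds Gata4, Gata5 and Gata6, 5 were called higher (Gata5, Gata6, Hand1, Tbx1 and Tbx2) and 3 lower (Foxc2, Tbx5 and Tbx20), with a median of 0.03. The 6 measured neural and neural crest factors had 0 called higher and 1 lower (Sox10), with a median of -0.18. Among 7 blood and immune factors Gata2 was called higher and Foxp1 lower, with a median of -0.89. These lists overlap, and each is read against the 19.5% of all genes called higher and the 21.7% called lower.

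Where an insertion lay within the gene also differed for a few members. Disrupting insertions, the class of the table that should inactivate a gene, equalled all insertions less the reverse ones in each of the 65 genes, so insertions counted in neither orientation were read as exon insertions and the rest as intron insertions. Exon insertions made up 24.5% of the lineage factors' insertions after screening (1509 of 6152, 23.5 to 25.6) and 18.3% before screening (1347 of 7343, 17.5 to 19.2). Over all genes they were 16.3% after and 13.9% before screening. Disrupting insertions were 62.3% of the lineage factors' insertions after and 58.8% before screening. Over all genes they were 57.7% after and 56.6% before screening. They comprise the exon and the forward intron insertions, so this share is not independent of the exon share. All insertions were exon insertions in 12 of the 60 members hit, and in 13.0% of the measured members against 3.50% of all measured genes. Sox14, Foxe1 and Foxs1, called higher, and Foxc2, called lower, were of this kind. The summed exon shares include such members, and Sox14 alone added 131 exon insertions after and 7 before screening. A gene without introns can hold exon insertions only, and how many introns these genes have was not examined.

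The exon share was compared for the 26 members with at least 20 insertions in each library. It was higher after screening with intervals apart in 3 (11.2% of all genes compared were) and lower in 2 (9.22% of all genes compared were), and 21 did neither. Gata4 had 94 exon insertions of 131 after screening (71.8%, 63.2 to 79.3), against 51 of 264 before screening (19.3%, 14.7 to 24.6). Its intron insertions were 37 after and 213 before screening, so that the exon count alone gave a ratio of 2.19 (1.54 to 3.14) and the intron count a ratio of 0.206 (0.141 to 0.294). Exon and intron insertions of this gene thus stood in opposite directions between the libraries.

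Foxn3 had 245 exon insertions of 1029 after screening (23.8%, 21.2 to 26.5), against 166 of 1146 before screening (14.5%, 12.5 to 16.7). For Foxp1 the exon share was 19.6% after screening (10 of 51) and 3.34% before screening (19 of 569), and the lower count was carried by the introns, with 41 intron insertions after and 550 before screening, 11.3-fold lower (8.22 to 15.9). Sox13 went the other way, with 5 exon insertions of 296 after screening (1.69%, 0.551 to 3.90), against 192 of 632 before screening (30.4%, 26.8 to 34.1). Its exon count was 32.3-fold lower (13.6 to 101), while its intron insertions numbered 291 after and 440 before screening (ratio 0.786, 0.675 to 0.913). Tbx4 had 18 exon insertions of 269 after screening (6.69%, 4.01 to 10.4), against 113 of 523 before screening (21.6%, 18.2 to 25.4). Among the 26 the lowest exon share after screening was that of Foxa1, an endoderm pioneer, with 0 of 103 after and 1 of 129 before screening. Foxp2 had the lowest before screening, with 1 of 249 after and 2 of 391 before screening. Sox4, a factor of lymphocytes and neurons, had the highest share in both libraries, with 22 of 22 after and 49 of 49 before screening. It is among the members with exon insertions only.

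**Figure D3:**
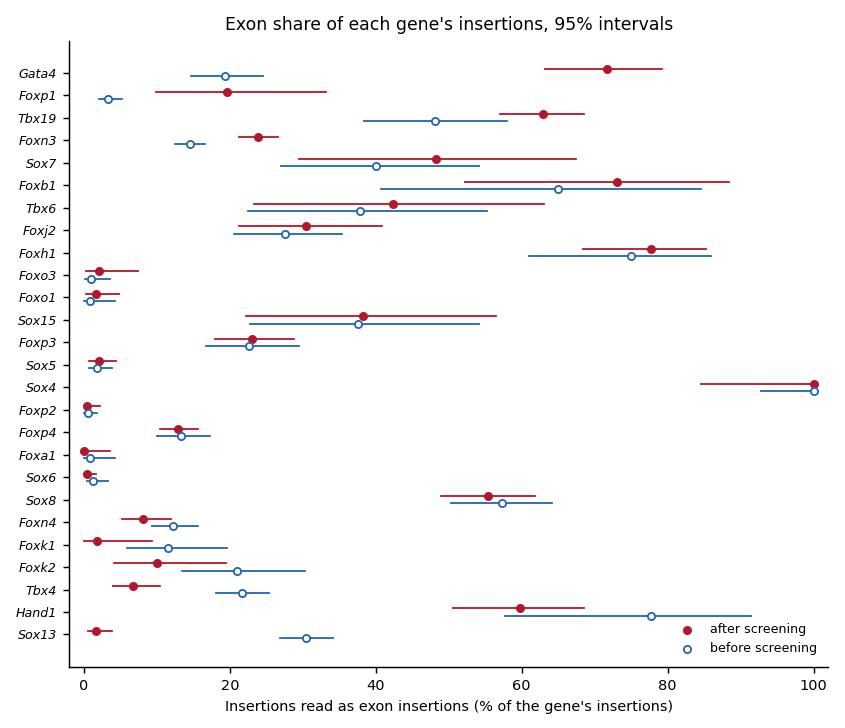
Exon insertions as a percentage of each gene's insertions in the library after screening (filled red) and before screening (open blue), with exact 95% counting intervals, for the 26 lineage factors with at least 20 insertions in each library. The intervals lie apart for Gata4, Foxp1 and Foxn3, higher after screening, and for Sox13 and Tbx4, lower after screening.

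**Figure D4:**
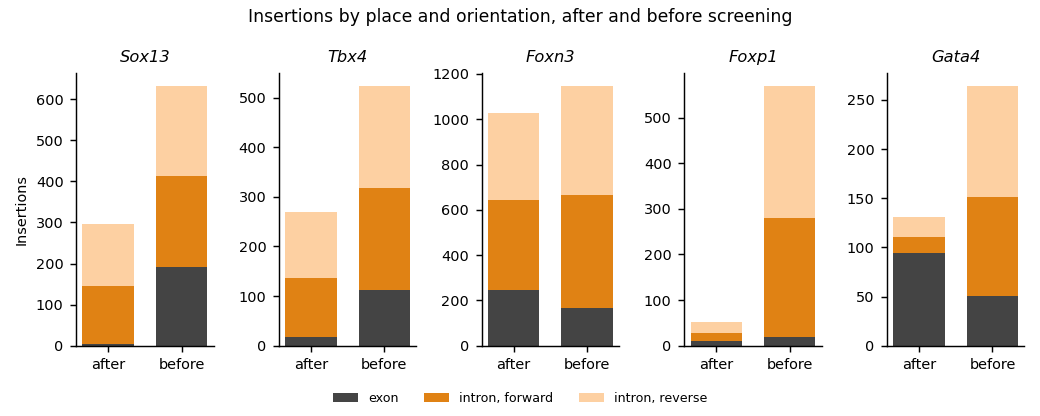
Stacked numbers of exon, forward intron and reverse intron insertions after (left bar) and before screening (right bar) in the 5 genes whose exon shares lay apart, each on its own axis. Forward and reverse insertions are nearly equal in every bar, and the exon part is 94 after and 51 before screening in Gata4 and 5 after and 192 before screening in Sox13.

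Orientation was balanced throughout. Forward insertions were 50.1% of the oriented insertions of the lineage factors after screening (48.6 to 51.5) and 49.5% before screening (48.3 to 50.8). Among members with at least 20 oriented insertions in the library, the share after screening ran from 42.9% in Hand1 (21 forward and 28 reverse) to 56.5% in the liver factor Foxa3 (13 forward and 10 reverse). Before screening it ran from 42.4% in Sox7, an endothelial and endoderm factor (14 forward and 19 reverse), to 56.0% in Sox15 (14 forward and 11 reverse). In 0 of these members did the interval leave out 50% in either library. Forward and reverse counts were closer than independent counting gives. The squared difference divided by the sum averaged 0.323 after and 0.461 before screening over the members, and 0.369 after and 0.345 before screening over all genes, where independent counts would average about 1. The cause of this evenness was not tested, and intervals that treat insertions as independent can be wrong in width.

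Reads per insertion were mostly near those of all genes by the median over genes, but lower when summed. The sums gave 1.40 after and 1.74 before screening over the members, against 1.83 after and 1.85 before screening over all genes. The log2 ratio of reads had the same sign as that of insertions in 22 of 22 called members. These were chosen by their insertion ratios and most insertions had few reads, so this sign was nearly fixed by the choice. Among members with at least 20 insertions in the library, reads per insertion had a median of 1.33 after and 1.40 before screening, against 1.32 after and 1.37 before screening over all genes. After screening they ran between 1.08 in Gata6 and 2.24 in Foxp1. Before screening they were lowest in Foxb1, a factor of the diencephalon, with 20 reads for 20 insertions. The exception was Foxp2, a forebrain factor linked to vocal learning, which held 249 insertions from 317 reads after screening and 391 insertions from 2681 reads before screening. This is 1.27 reads per insertion after and 6.86 before screening, where the next highest member before screening was Foxp3, the factor of regulatory T cells, at 1.73. Only 29 of 8485 genes with at least 20 insertions before screening had more. By reads Foxp2 was called lower, by insertions it was not (ratio 0.756, 0.643 to 0.889).

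**Figure D5:**
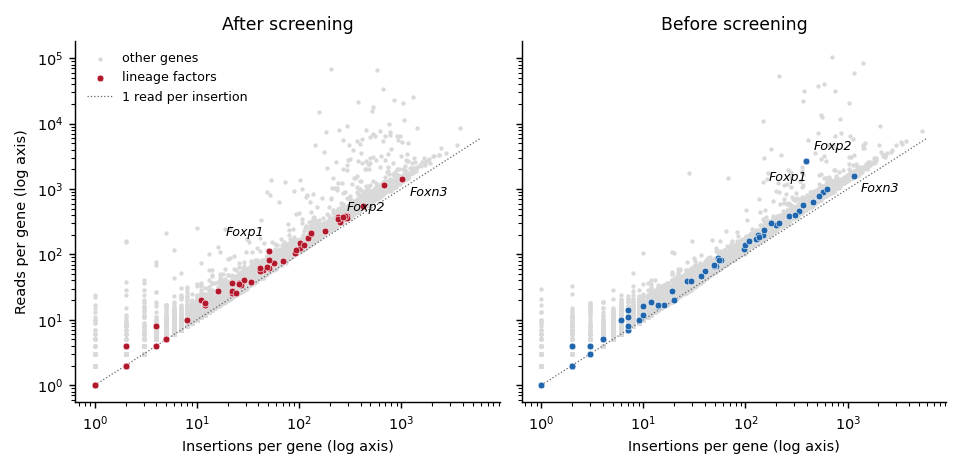
Reads per gene against insertions per gene after screening (left) and before screening (right), both axes logarithmic, for the lineage factors in colour and other genes in grey, with a dotted line at 1 read per insertion. Foxp2 lies apart from the other lineage factors before screening, with 2681 reads for 391 insertions.

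Genes beside the called members were called about as often as all measured genes. The next protein-coding genes of the table on either side, in RefSeq order, numbered 44 for the 22 called members, and 39 of these were measured. Of them 6 were called in the same direction as the lineage factor, 10 in the opposite direction and 23 not at all. Of all measured genes 41.2% were called in either direction. Beside Foxa2, for instance, Sstr4 held 38 insertions after and 0 before screening, while beside Tbx1 Septin5 held 2 after and 107 before screening. Of the 65 members 19 overlap another gene or predicted locus, and how the insertions were divided there is not given in the sources used here.

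Partners of these factors outside the families were listed as cofactors. Of 14 measured cofactors 2 were called higher and 1 lower after screening, against 19.5% and 21.7% of all measured genes, with a median log2 ratio of -0.25. The Groucho corepressors Tle1 and Tle4 were the ones called higher. Tle1 held 110 insertions after and 15 before screening, 8.71-fold higher (5.06 to 16.1), and Tle4 held 70 after and 13 before screening, 6.40-fold higher (3.51 to 12.6). Ldb1, an adaptor of Gata and LIM complexes, held 0 after and 66 before screening, at least 18.5-fold lower (interval from 14.6).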

How the data were processed

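Insertions were counted in 1 library after and 1 before screening. The authors deposited raw counts per gene of insertions, disrupting insertions, forward and reverse insertions and reads, not scaled to depth. By the study's methods, FASTX removed transposon tags and HaSAPPy mapped reads and gave insertions their genes (versions are not given in the sources used here). Genes carry rat Ensembl identifiers but the methods cite a mouse assembly, which leaves the build uncertain. The labels describe messenger RNA. HISAT2 2.0.5 and featureCounts 1.5.0-p3, named in the submitters' processing notes, make no insertion table. Columns were matched to libraries by name, and a suffix on these names is not explained by the labels. The 36 other columns, among them the authors' fold and Fisher p-value, were not used.

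A row of insertions assigned to no gene, 57.9% of insertions after and 57.3% before screening, stayed out of totals. Ratios and intervals were computed with Python 3.11.15 and SciPy 1.17.1 and tested on simulated data. The simulated counts were drawn independently, so that test cannot show how the intervals perform where insertions are not independent. The members, lists, rules and alternatives were chosen with earlier results of these data known. Named are called members, the largest members of each family, a fixed set (Gata4, Gata6, Sox17, Foxa2, Tbxt, Hand1, Foxo1), members with extreme exon share, orientation or reads per insertion, and cofactors where called. Foxd3 and Eomes of that set were not analysed here, and some genes of the lists are not reported here. Foxo3, the named neighbours and the 5 genes with intervals apart were chosen after their values were seen, as were the ranges of insertion number, the comparison of exon shares and 3 alternatives (a 0 placed at the floor for the median, and leaving out Gata4 or Foxp2). Other alternatives were reads, disrupting insertions, scaling by the median ratio or by totals with unassigned insertions, halved counts, other minimums, another fold and another pseudocount.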

Additional observations from a re-analysis of the deposited data

How the results depend on the processing

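No paired analysis was possible because the data hold only 1 library after and 1 before screening, so none could be left out either. The paper mentions 2 independent mutant libraries, and the labels do not say which of them was counted in each group. The calls below were counted for lineage factors only, so no share of all genes stands beside them. Called higher and lower after screening were 13 and 11 lineage factors by reads (Foxj3 and Gata6 lost, and Foxa3, Foxp2, Sox17 and Tbx21 gained), 15 and 9 by disrupting insertions (Foxa3 and Sox17 gained), 14 and 9 with totals that include unassigned insertions (Sox17 gained), and 13 and 9 both with halved counts and with scaling by the median ratio (Gata6 lost and Sox17 gained). With at least 50 insertions 7 were higher and 5 lower, and by a fold of 2 without an interval 11 were higher and 6 lower, since fewer genes were counted. The calls lost at this minimum were those of Foxa2, Foxe1, Foxi3, Foxj1, Foxj3, Foxs1, Gata5, Gata6, Sox10 and Tbx20. No call changed direction under any of these, but a difference of 4-fold or more leaves little room for that. Among the 33 named members a reversal was counted for called ones only, and 0 reversed under 6 alternatives. By disrupting insertions the log2 ratio was -0.22 for Gata4, -1.29 for Sox13 and -0.99 for Tbx4, and by reads -2.70 for Foxp1 and -1.08 for Sox13. With at least 10 insertions in each library the summed exon share was 21.3% after and 17.4% before screening and the disrupting share 60.6% after screening. Reads per insertion, when summed, were 1.40 after and 1.74 before screening, against 1.83 after and 1.85 before screening over all genes. Their medians were 1.35 after and 1.40 before screening over members with at least 10 insertions in each library. The members' sum before screening was 1.45 without Foxp2. Folds of members with 0 to 10 insertions in a library rest on few counts.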

Other observations

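Of 71 measured homeobox genes, taken by symbol as another large class of developmental factors, 17 were called higher and 10 lower after screening, against 19.5% and 21.7% of all measured genes, with a median log2 ratio of 0.30. Of 34 measured nuclear receptors 4 were called higher (11.8%) and 5 lower (14.7%), with a median of 0.02.

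Lineage factors outside the 5 families were listed for their roles, and 15 of 23 were measured, with 3 called higher and 2 lower after screening, against the same shares of all genes. Cdx2, the trophectoderm and hindgut factor, held 251 insertions after and 47 before screening, 6.34-fold higher (4.63 to 8.86). Snai2, a factor of epithelial to mesenchymal transition, held 30 after and 0 before screening, at least 11.9-fold higher (interval from 9.08). In the other direction, Hnf4a, a liver factor, held 35 after and 180 before screening, 4.33-fold lower (3.00 to 6.41). Tcf21, a mesenchymal factor, held 0 after and 15 before screening, at least 4.21-fold lower, with an interval from 3.02.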
